A study of Elaeis guineensis with 58 samples.

Results

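The plastid genes of the NADH dehydrogenase-like (NDH) complex were followed in spear leaves of oil palm, Elaeis guineensis. Their rows were found by symbol in the count tables: ndhA, ndhC, ndhD, ndhE, ndhF, ndhG, ndhH, ndhI, ndhJ and ndhK, all 10 of the names looked for, among 27986 gene rows. The plastid rows, against which they are set below, encode 79 proteins, 29 tRNAs and 4 rRNAs. A further subunit gene, ndhB, was left out because it usually lies in the plastid inverted repeat, and its row held 0 counts in all 58 libraries.

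In the plastids of land plants, the NDH complex sits in the thylakoid membrane and is related to respiratory complex I. It takes electrons from ferredoxin and passes them to plastoquinone, which feeds cyclic electron flow around photosystem I and chlororespiration. NdhH, NdhI, NdhJ and NdhK belong to the stromal arm, where NdhI and NdhK hold iron-sulfur clusters. NdhA, NdhC, NdhD, NdhE, NdhF and NdhG belong to the membrane arm, and NdhD and NdhF resemble proton-pumping antiporters. Other subunits are encoded in the nucleus and could not be matched by name here, so the values below describe the plastid-encoded core alone.

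The study asked which leaf transcripts differ between palms whose leaf tissue forms embryoids in culture to different extents. The spear leaf is the youngest, still unopened frond (F0). RNA from 52 palms was counted at its 3′ ends in 58 libraries, with single-end reads of 100 bases for agency L1 and 50 bases for agency L2. The labels sort palms by embryogenesis into zero, low and, in L2 only, high.

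In L1 there were 17 zero and 15 low palms, all extracted by CTAB, and the low palms had given 1 to 48 embryoid lines. The L1 zero palms were 5 Dumpy Avros and 12 Dumpy Yangambi Avros, and the L1 low palms 7 and 8. In L2 there were 6 zero, 6 low and 8 high palms extracted with the InnuPREP kit, with 2 to 37 embryoid lines in low and 91 to 534 in high palms. All 6 L2 zero palms were Yangambi_A. Among L2 low palms 4 were labelled Yangambi_B, 1 Jen Avros and 1 Yangambi_C. Among L2 high palms 6 were labelled Jen Avros, 1 Jen Avros Yangambi and 1 Yangambi_C. Of these L2 palms, 6 were also extracted by CTAB, 2 from each embryogenesis group. Agency, read length and genotype labels therefore change together, and within L2 no genotype label occurs in both zero and high palms.

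The depth per library, as counts in genes, was 3943437 to 9685451 in L1. It was 8773354 to 15004694 for InnuPREP and 4215872 to 7580573 for CTAB libraries of L2. The 6 plastid leaf genes used as markers (rbcL, psbA, psbC, psbD, psaA and psaB) all passed the filter on low counts in every comparison. In L1, zero palm 9 stood apart, with 3.40% multi-mapped reads against 8.79% to 38.7% in the other 31 libraries and the lowest levels of ndhE, ndhF, ndhH, ndhI and ndhK. Calls and correlations in L1 are given with and without it, except for the interaction between agencies. In L1 low palm 6 plastid rows took 3.87% of counts, less than the 4.84% in zero palm 9. That palm was not left out of any fit or correlation. No 2 libraries held identical values.

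Neighbouring genes matter for these rows, because reads from adjacent or overlapping genes cannot be told apart without the counting settings, which are not given in the sources used here. In the EG11 annotation ndhJ, ndhK and ndhC lie in a row between trnF-GAA and trnV-UAC. A second run holds ccsA, ndhD, psaC, ndhE, ndhG, ndhI, ndhA, ndhH and rps15, in that order. The gene ndhF lies apart from both runs, between ycf1 and rpl32. Levels are given as CPM, each gene's reads relative to the library total, scaled once over all 58 libraries by the trimmed mean of M-values (TMM). They compare 1 gene between libraries and not 1 gene with another, since no lengths were used.

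Levels of the NDH genes were higher in L1 CTAB than in L2 InnuPREP libraries, which differ in agency and in extraction. Summed over the members, the level was 2849 ± 959 CPM in L1 zero palms (SD, n = 17) and 2863 ± 1134 CPM in L1 low palms (SD, n = 15). In L2 InnuPREP libraries it was 754 ± 226 CPM in the 6 zero palms, 730 ± 199 CPM in the 6 low palms and 700.3 ± 178 CPM in the 8 high palms (SD). The 6 L2 CTAB libraries had 1226 ± 381 CPM (SD), from 618 to 1577 CPM. The L2 InnuPREP groups overlapped one another, and the L1 groups did the same. By CTAB the L2 high palms (618 and 1099 CPM) lay below the zero palms (1463 and 1577 CPM). The low palms had 1025 and 1573 CPM by CTAB, and these differences were not tested. The lowest L1 library, zero palm 9 at 954 CPM, lay within the L2 InnuPREP range of 393 to 1029 CPM, and without it the lowest was low palm 6 at 1045 CPM, above that range. The plot of members by library shows this gene by gene.

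**Figure D1:**
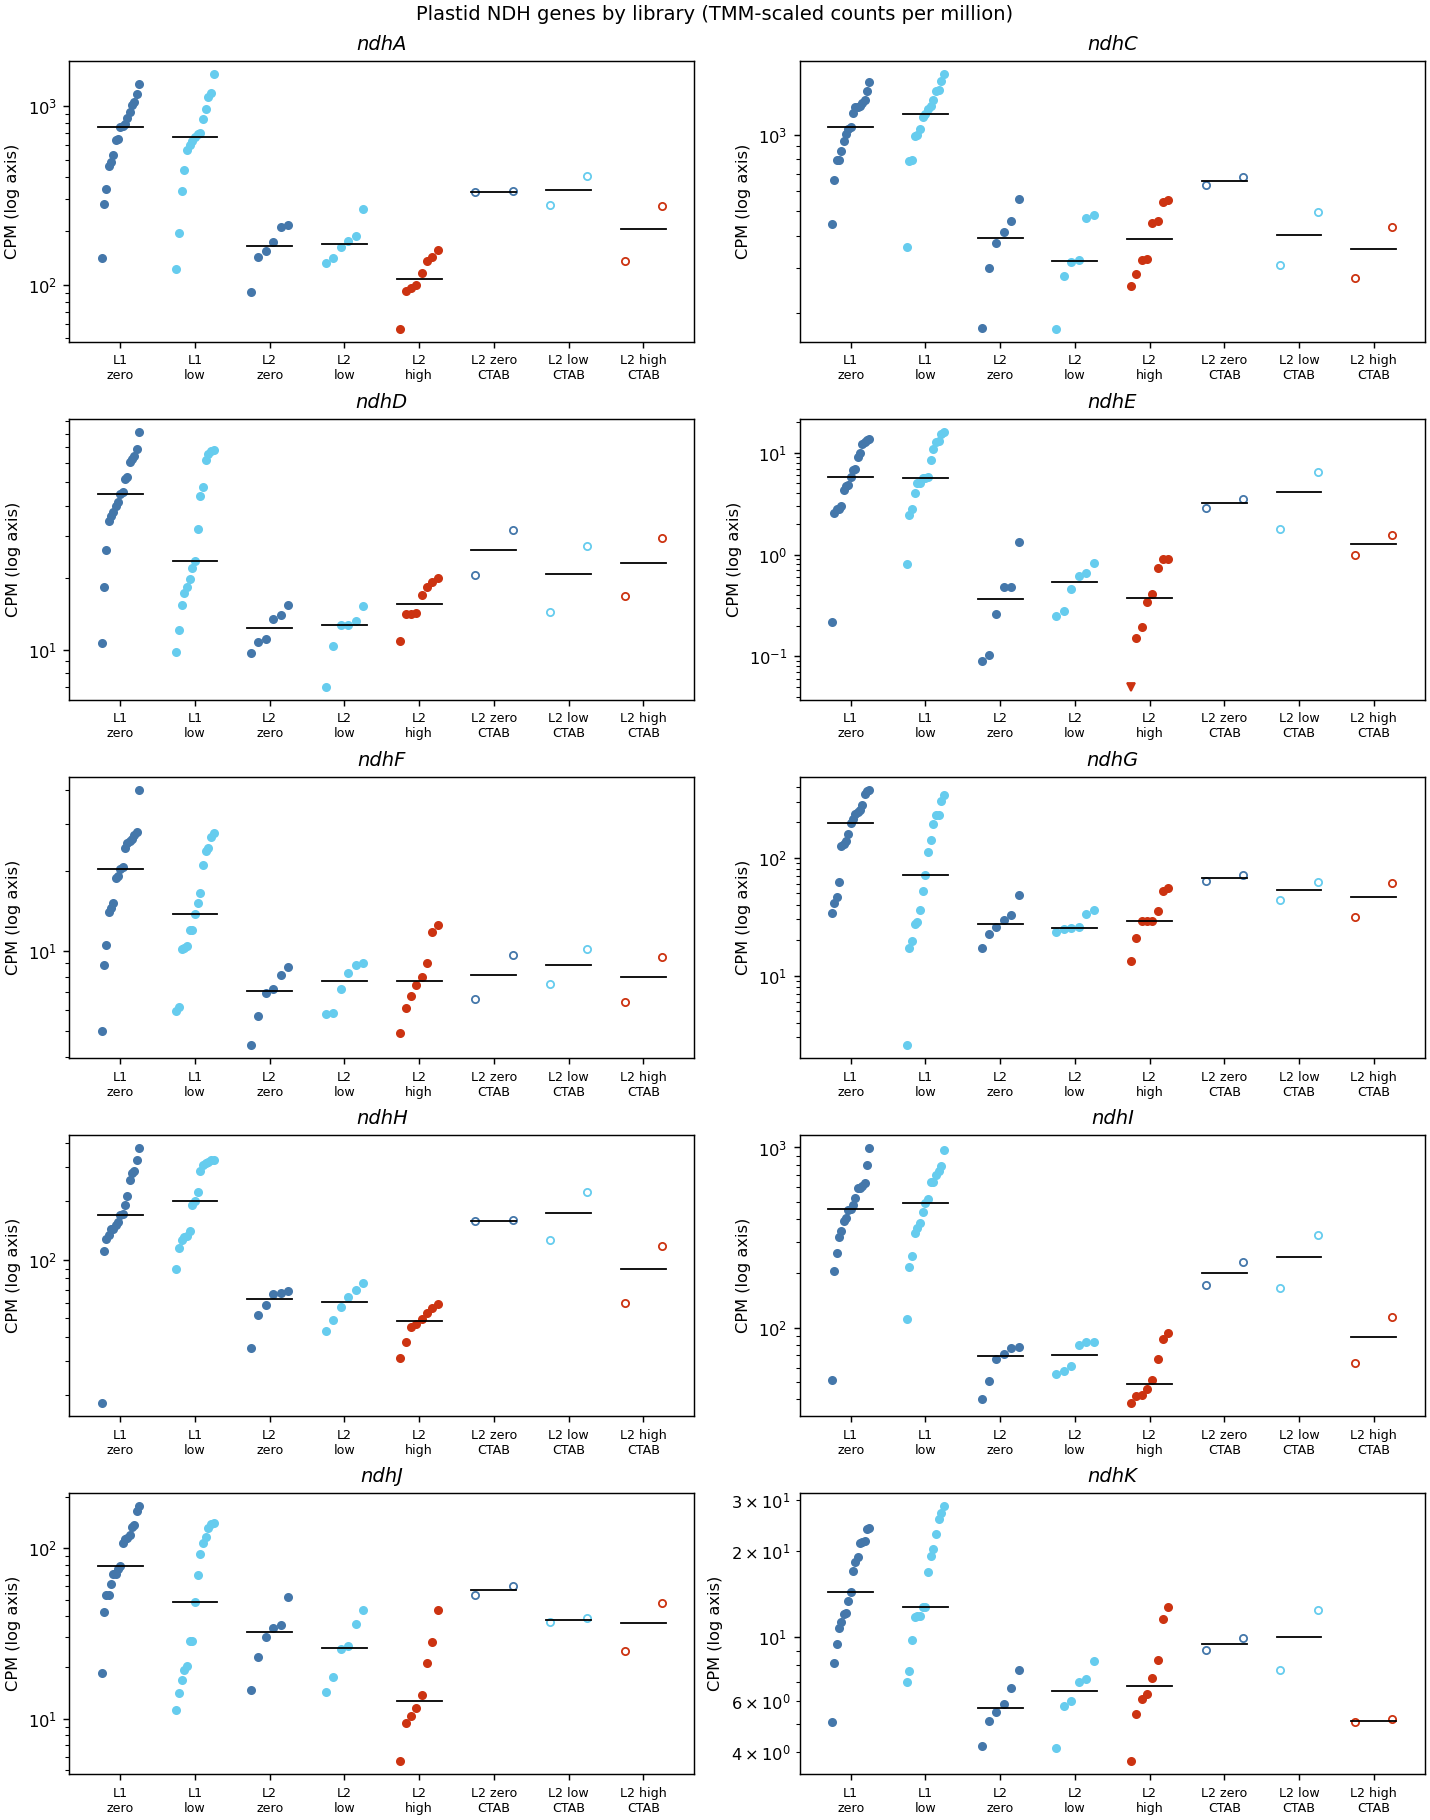
CPM of each member (log axis) in each library, by group; horizontal lines are group medians, open circles are the L2 CTAB libraries, and the triangle marks a library with 0 counts of ndhE. L1 libraries spread the most for ndhG, from 2.57 to 377 CPM, and least for ndhC, from 364 to 1734 CPM.

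Much of that range was shared with the plastid genes as a whole. Plastid rows took 12.1% ± 2.50 of counts in L1 zero palms (SD, n = 17) and 10.7% ± 3.51 in L1 low palms (SD, n = 15). They took 3.00% ± 0.811 in L2 zero, 3.17% ± 0.743 in L2 low (SD, n = 6 each) and 3.05% ± 0.849 in L2 high palms by InnuPREP (SD, n = 8). Extraction differs here too: the same 6 L2 palms had 6.24% by CTAB and 3.13% by InnuPREP, so agency and extraction cannot be told apart between L1 CTAB and L2 InnuPREP libraries. In such bulk samples, fewer plastid-rich cells and less plastid RNA per cell cannot be told apart.

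As a share of plastid counts the summed NDH genes moved far less. They made up 2.44% ± 0.425 in L1 zero palms, from 1.52% to 2.98%, and 2.67% ± 0.42 in L1 low palms, from 2.03% to 3.29%. In L2 InnuPREP libraries they made up 2.26% ± 0.147 in zero (2.02% to 2.45%), 2.14% ± 0.227 in low (1.78% to 2.41%) and 2.10% ± 0.246 in high palms (1.86% to 2.58%). All 5 of these ranges overlapped. The L2 CTAB libraries, 2 per group, had 2.34% and 2.63% in zero, 2.16% and 2.23% in low and 1.67% and 1.96% in high palms. These CTAB values did not overlap between groups. By InnuPREP the same 2 low palms had 1.78% and 2.22%, on either side of the same high palms at 2.06% and 2.00%. The same zero palms were highest there too, at 2.37% and 2.45%. The lowest share, in L1 zero palm 8, had a 95% Wilson interval of 1.49% to 1.56%, so counting error is small beside the spread between palms; such intervals cover counting error only. The sum does not show how single members moved within plastid counts: the ndhG share ran from 0.0075% in L1 low palm 6 to 0.296% in L1 zero palm 16. Shares are described here without a test.

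Split by genotype label, the NDH share of plastid counts was 2.52% ± 0.42 in L1 Dumpy Avros (SD, n = 12) and 2.56% ± 0.449 in Dumpy Yangambi Avros (SD, n = 20). Among L2 InnuPREP libraries it was 2.26% ± 0.147 in Yangambi_A (SD, n = 6), 2.05% ± 0.225 in Yangambi_B (SD, n = 4) and 2.10% ± 0.254 in Jen Avros (SD, n = 7). The 2 Yangambi_C palms had 2.29% and 2.41%, and the Jen Avros Yangambi palm had 2.00%. The L2 labels with at least 4 palms overlapped.

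**Figure D2:**
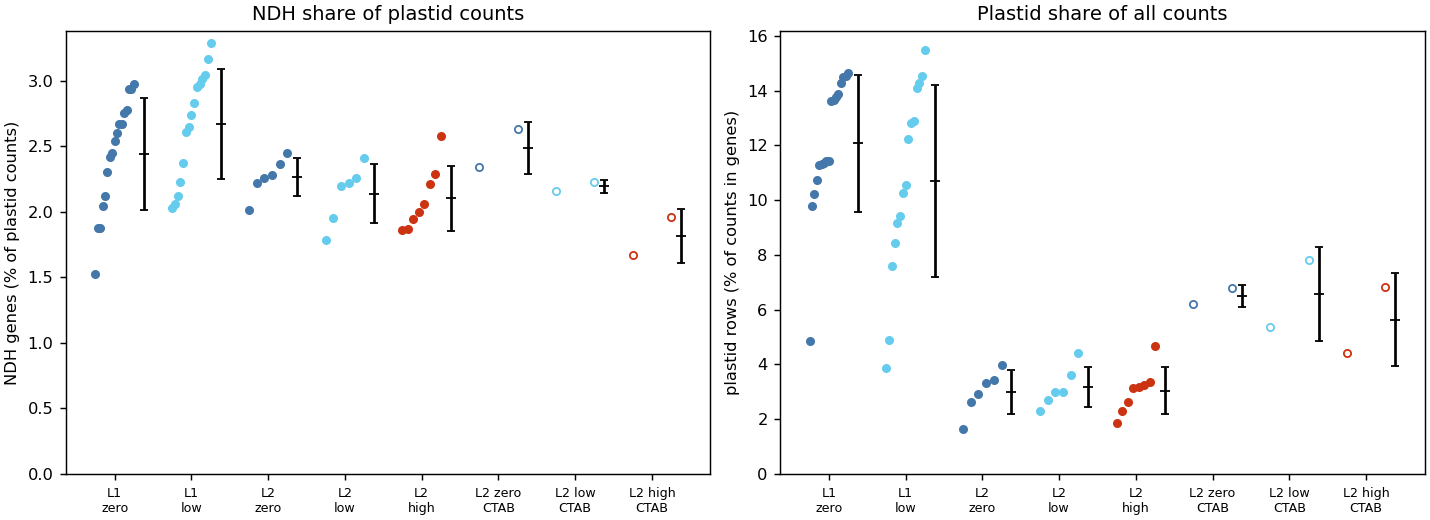
Left, the summed NDH members as a percentage of plastid counts; right, plastid rows as a percentage of counts in genes. Points are libraries by group (open circles, L2 CTAB) and bars are mean ± SD: the NDH share averages between 1.81% and 2.67% in every group, while the plastid share averages from 3.00% to 12.1%.

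Within L2, high palms were first set against zero and low palms together, the reference group the study uses. The members went in different directions: ndhA, a membrane arm subunit, fell and ndhD, an antiporter-like membrane arm subunit, rose, and the other 7 tested members did not pass. That is 1 member higher and 1 lower of 9 tested, while 40.5% of the 20008 genes tested were called, 20.3% higher and 20.3% lower (edgeR quasi-likelihood test, Benjamini-Hochberg adjusted p below 0.05). The members' share called lies below that background. Among the 84 plastid rows tested the share was smaller still, with 4 called higher and 6 lower. Their median log2 fold change was 0.14, against 0.01 over all genes tested.

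The level of ndhA ranged from 90.4 to 216 CPM in L2 zero palms, with a median of 163, and from 131 to 265 CPM in low palms, with a median of 169. In high palms it ranged from 56.3 to 156.5 CPM, with a median of 108. All 8 high palms lay below the mean log2 CPM of zero and low palms, and 7 of the 12 zero and low palms lay above the highest high palm, but the groups overlapped. It fell by 0.61 ± 0.19 on the log2 scale (SE), with an edgeR adjusted p of 0.0148.

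Within plastid counts ndhA separated the groups more clearly. Its share was 0.509% ± 0.0477 in zero and low palms (SD, n = 12) and 0.335% ± 0.0666 in high palms (SD, n = 8). Of the 8 high palms, 6 lay below the lowest zero or low palm, and 11 of the 12 zero and low palms lay above the highest high palm. These counts were 4 and 10 for the ndhH share, and 5 and 5 for the ndhJ share. In the shares of ndhC and ndhK, 3 high palms each lay above every zero and low palm instead. When libraries were scaled to their plastid totals instead of by TMM, ndhA fell by 0.60 ± 0.17 on the log2 scale (SE, edgeR adjusted p = 0.0121), where 24.9% of all genes tested were called in either direction.

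The level of ndhD ranged from 9.75 to 15.3 CPM in zero palms (median 12.3), from 7.00 to 15.3 CPM in low palms (median 12.7) and from 10.9 to 20.0 CPM in high palms (median 15.6). It was above the zero and low mean in 7 of 8 high palms, and 4 high palms lay above every zero and low palm. The log2 fold change was 0.40 ± 0.14 (SE), with an edgeR adjusted p of 0.0303. The call was not stable when 1 library was left out. It was lost in 6 of the 20 such fits (high palms 1, 2 and 3, zero palms 1 and 5, and low palm 5), where the edgeR adjusted p was 0.0511 to 0.0694. It was also lost with plastid-count scaling, where the log2 fold change was 0.42 and the edgeR adjusted p 0.145.

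The stromal arm gene ndhJ had the most negative log2 fold change of the tested members, but an adjusted p above the threshold. It ranged from 14.7 to 51.6 CPM in zero palms (median 32.3), from 14.4 to 43.2 CPM in low palms (median 26.2) and from 5.65 to 43.5 CPM in high palms (median 12.7). In 5 of 8 high palms it lay below every zero and low palm, while high palm 6, at 43.5 CPM, lay above every low palm. The log2 fold change was -0.70 ± 0.32 (SE, edgeR adjusted p = 0.0882) by TMM. With plastid-count scaling it was -0.76 ± 0.23 and passed (SE, edgeR adjusted p = 0.0177).

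Values of ndhH, also of the stromal arm, had a log2 fold change of -0.32 ± 0.15 (SE, edgeR adjusted p = 0.0883), and 7 of 8 high palms lay below the zero and low mean. The other tested members lay between -0.21 for ndhI and 0.33 for ndhK on the log2 scale, with adjusted p of 0.191 or more. At an unadjusted p below 0.05, 4 of the 9 tested members and 48.8% of the 20008 genes differed. ndhE, a small membrane arm subunit, had 0 to 15 counts in the 20 InnuPREP libraries and did not pass the filter on low counts. Nothing can be said of it from so few counts.

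The 2 genotype labels shared by low and high palms, Jen Avros and Yangambi_C, give 1 low palm each to set beside the high palms. A fit with genotype as a term compares the groups within these labels only, and no zero palm carries either. The low Jen Avros palm had 163 CPM of ndhA, above the 56.3 to 156.5 CPM of the 6 high Jen Avros palms. The low Yangambi_C palm had 186 CPM and the high one 92.3 CPM. For ndhD the low Jen Avros palm had 12.7 CPM, inside the 10.9 to 20.0 CPM of high Jen Avros palms, and the Yangambi_C palms had 12.7 and 14.2 CPM. With genotype as a term in the fit, ndhA had a log2 fold change of -0.75 ± 0.37 (SE, edgeR adjusted p = 0.246) and ndhD of 0.26 ± 0.30 (SE, adjusted p = 0.666), so neither call remained. In that fit 5.62% of all genes were called.

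Multi-mapped reads made up 14.1% ± 2.38 in the 8 high palms and 14.1% ± 3.12 in the 12 zero and low palms (SD), and the share of reads outside genes was lower in high palms on average, at 9.35% ± 0.507 against 10.1% ± 0.651 (SD). With both shares as terms, ndhA (-0.87), ndhH (-0.56) and ndhJ (-1.58) were called lower (edgeR, log2 scale), where 23.5% of all genes were called. In it ndhD had a log2 fold change of 0.38 and was not called (adjusted p = 0.165). The median over the tested members then turned from 0.14 to -0.34.

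Pairwise, the fall of ndhA was called against low palms but not against zero palms. Against low palms it was -0.67 ± 0.22 on the log2 scale (SE, edgeR adjusted p = 0.0307), 1 of 9 tested members called where 28.1% of all genes were. Against zero palms it was -0.55 ± 0.22 (SE, edgeR adjusted p = 0.0604). There 35.9% of all genes and 0 of 9 members were called by edgeR, 3 members and 46% of all genes had an unadjusted p below 0.05, and DESeq2 called 1 member and 39.9% of all genes. Low and zero palms differed in 0 of 9 members, with log2 values from -0.21 to 0.14 and none at an unadjusted p below 0.05 or called by DESeq2, where 0.176% of all genes were called by edgeR. The first 2 comparisons share the high palms, and all 3 come from 1 fit.

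Genes of the complexes that NDH works with were also mostly not called in high palms. In photosystem I, which NDH joins in a supercomplex, 1 of 7 listed genes was higher, psaJ, a small subunit (log2 0.76 ± 0.24 (SE), edgeR adjusted p = 0.0144). In cytochrome b6f, which passes electrons on from plastoquinone, 1 of 4 tested genes was lower, petD, encoding subunit IV (-0.58 ± 0.21 (SE), edgeR adjusted p = 0.0343). Photosystem II had 1 higher and 1 lower of 15, psbA of the reaction centre (1.01) and the small subunit gene psbJ (-0.80), and ATP synthase 0 of 6. Over all plastid rows 4 were higher and 6 lower of 84 tested, with a median of -0.06.

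**Figure D3:**
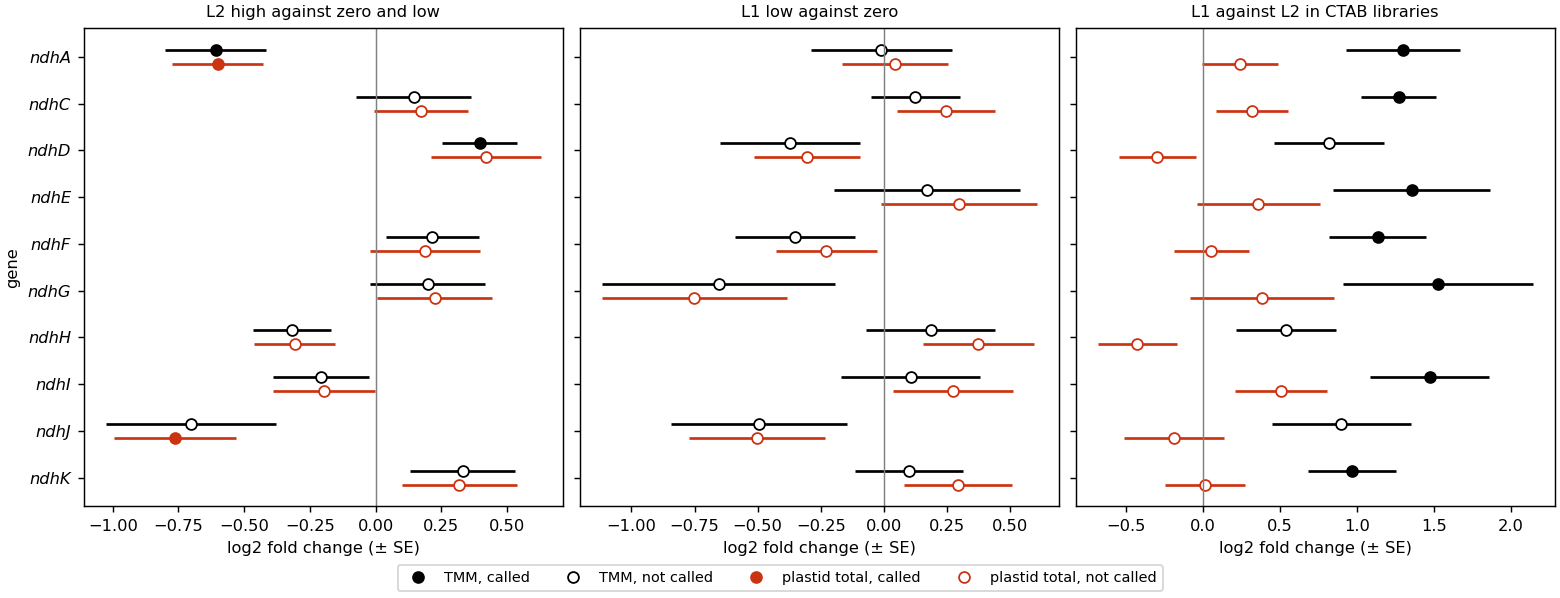
Log2 fold change ± SE of each member (edgeR) in 3 comparisons, with TMM scaling (black) and scaling to plastid totals (red); filled circles are called at an adjusted p below 0.05. In the L2 comparison ndhA is called under both scalings, and in the comparison of agencies 7 members are called by TMM and 0 by plastid totals.

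In L1, low and zero palms did not differ in any member by edgeR. The log2 fold changes ran from -0.65 ± 0.46 for ndhG to 0.19 ± 0.25 for ndhH (SE), with adjusted p from 0.761 to 0.998 and a median of 0.04. Over all genes tested, 0% were called by edgeR and DESeq2 called 0. At an unadjusted p below 0.05 there were 1336 of 18434 genes and 0 members. Without zero palm 9, 0 members were called as before. Scaling by plastid totals moved the median of all genes from 0.03 to 0.26, turned ndhA from -0.01 to 0.04 and called 0 members.

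The members still had different patterns in the L1 palms. Levels of ndhG, a membrane arm subunit, ranged from 33.7 to 377 CPM in zero palms (median 198) and from 2.57 to 343 CPM in low palms (median 71.8). Its SD on the log2 scale was 1.94 in low and 1.13 in zero palms. The lowest value by far was in low palm 6, which also had the lowest ndhA, ndhC, ndhD and ndhJ of L1, and the groups overlapped over most of their range. By contrast ndhC, also of the membrane arm, ranged from 447 to 1605 CPM in zero palms (median 1068) and from 364 to 1734 CPM in low palms (median 1208), with a coefficient of variation of 29.4% over L1, the lowest of the 10 members.

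The log2 values of L1 low against zero palms were below 0 for ndhA, ndhD, ndhF, ndhG and ndhJ and above 0 for the other 5 members. The difference between agencies in the low minus zero contrast was tested as an interaction. It was called in 0 of 10 members, with log2 values from -0.27 to 0.61 and 0 members at an unadjusted p below 0.05 or called by DESeq2, where edgeR called 0.0485% of all genes.

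Between the 2 L1 genotype labels, levels differed by less than their spread. The 12 Dumpy Avros palms averaged 745 ± 371 CPM of ndhA and the 20 Dumpy Yangambi Avros palms 692 ± 333 CPM (SD). With the embryogenesis group as a term, 0 of 10 members were called, and the log2 fold changes reached at most 0.24 ± 0.51 (SE), for ndhG. Over all genes edgeR called 0% and DESeq2 18 genes, and 1376 genes had an unadjusted p below 0.05. No member was among these, and 0 members were called by edgeR without zero palm 9. Scaling by plastid totals moved the median of all genes from -0.02 to -0.22 and turned 8 of the 9 positive member values below 0, with 0 members called.

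Extraction changed the counts of most members in the same 6 L2 palms. Relative to InnuPREP libraries, CTAB libraries were higher in 8 of 10 members and lower in 0, while 53.8% of all genes were called, 25.3% higher and 28.5% lower (edgeR, palm as a block). The members' median was 0.80 on the log2 scale against -0.03 over all genes. Plastid rows as a whole had a median of 0.90, with 59 higher and 3 lower of 88 tested, and their share of counts was 6.24% ± 1.19 by CTAB and 3.13% ± 0.800 by InnuPREP (SD, n = 6 each).

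Of the members, ndhE had the largest log2 difference. Its InnuPREP and CTAB levels were 0.485 and 3.50 CPM in zero palm 2, 1.33 and 2.90 CPM in zero palm 6, and 0.460 and 1.77 CPM in low palm 5. They were 0.826 and 6.43 CPM in low palm 6, 0.151 and 0.994 CPM in high palm 3, and 0.738 and 1.56 CPM in high palm 8. CTAB was higher in all 6 palms, though on 2 to 15 counts by InnuPREP and 9 to 30 by CTAB. The log2 fold change was 1.99 ± 0.36 (SE, edgeR adjusted p = 0.000119).

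The stromal arm genes ndhH and ndhI were also higher by CTAB in 6 of 6 palms. ndhH went from a range of 31.2 to 76.2 CPM by InnuPREP to 60.1 to 223 CPM by CTAB, a log2 fold change of 1.34 ± 0.10 (SE, edgeR adjusted p = 1.26e-09). ndhI went from 41.5 to 80.3 CPM to 63.3 to 327 CPM, a change of 1.35 ± 0.15 (SE, edgeR adjusted p = 4.03e-06). In both genes the 2 ranges overlapped between palms, and the difference showed within each palm.

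Among the rest, ndhA was higher in 6 of 6 palms, by 0.91 ± 0.10 on the log2 scale (SE, edgeR adjusted p = 1.57e-07). ndhJ (0.95), ndhG (0.70), ndhD (0.62) and ndhC (0.40) were called too, each higher in 5 of 6 palms. For ndhC, ndhD and ndhG this direction reversed when libraries were scaled to plastid totals, a scaling that moved the median of all genes from -0.03 to -0.76. ndhK (0.33, edgeR adjusted p = 0.176) and ndhF (0.23, adjusted p = 0.260) were not called. The call of ndhD was lost without high palm 8 (adjusted p = 0.0543) or low palm 5 (adjusted p = 0.0529).

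**Figure D4:**
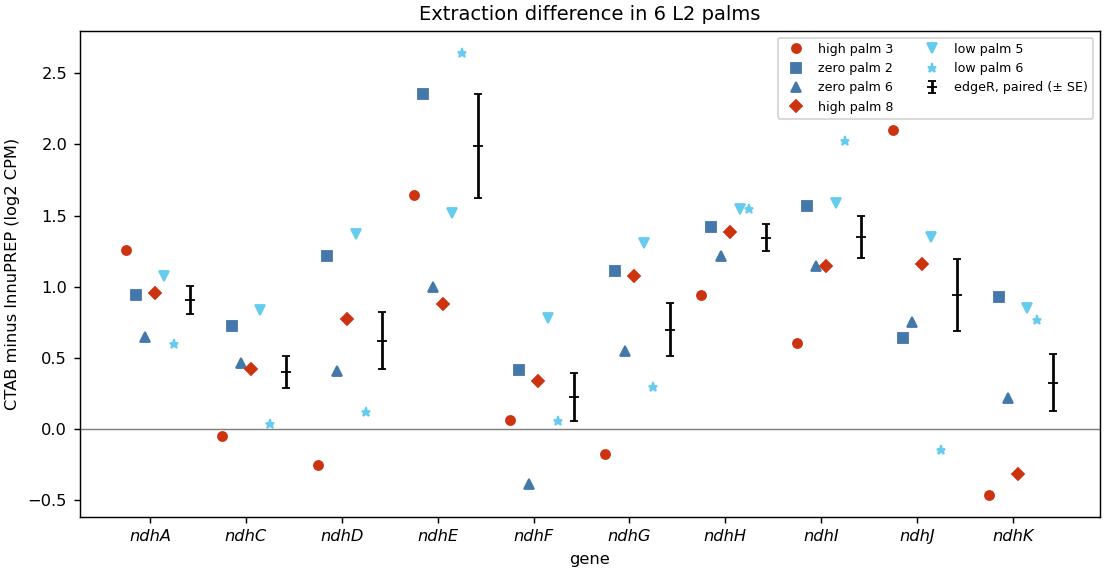
CTAB minus InnuPREP difference in log2 CPM for each member in each of the 6 L2 palms (symbols), with the paired edgeR log2 fold change ± SE in black. Differences for ndhA, ndhE, ndhH and ndhI are above 0 in 6 of 6 palms, and high palm 3 is below 0 for ndhC, ndhD, ndhG and ndhK.

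Within plastid counts the members split. On the plastid-total scale 75.1% of all genes were called and 5 members were. ndhE (1.26), ndhI (0.61) and ndhH (0.61) were higher by CTAB, and ndhC (-0.34) and ndhF (-0.51) lower (edgeR, log2 scale). The share of plastid counts was higher by CTAB in 6 of 6 palms for ndhE and ndhH and in 5 for ndhI, and in 0 of 6 for ndhC and ndhF. The summed NDH share hid this split, at 2.17% ± 0.328 by CTAB and 2.15% ± 0.247 by InnuPREP (SD, n = 6 each).

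Along the plastid genome, the run from ndhD to ndhH, with psaC among it, was called higher in 7 of 7 genes, where 59 of the 88 plastid rows tested and 25.3% of all genes were, and psaC itself, which encodes the iron-sulfur subunit of photosystem I, rose by 2.59 ± 0.12 on the log2 scale (SE, edgeR adjusted p = 6.93e-12). Of ndhJ, ndhK and ndhC, 2 were called, and ndhF alone was not. By arm, 3 of 4 stromal and 5 of 6 membrane genes were called, with medians of 1.14 and 0.66. Photosystem I had 4 of 7 listed genes higher, cytochrome b6f 4 of 6, photosystem II 9 of 15 and ATP synthase 4 of 6 with 1 lower.

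By CTAB, too, the 2 high palms had the lowest ndhA shares, but both are also in the InnuPREP comparison, so they add no new palm. High palm 3 had 0.364% of plastid counts in ndhA by CTAB and 0.238% by InnuPREP, and high palm 8 had 0.493% and 0.440%. The 4 zero and low palms had 0.525% to 0.585% by CTAB, above both high palms. With 2 high palms the difference was not tested.

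Multi-mapped reads moved with extraction as well. Their share was 24.9% ± 5.77 in the CTAB and 13.5% ± 3.48 in the InnuPREP libraries of the 6 palms, and the share of reads outside genes was 18.3% ± 1.75 and 10.0% ± 0.551 (SD, n = 6 each). The part of these shares in the members' differences was not tested.

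Agencies were compared among CTAB libraries only, where read length, genotype labels and agency cannot be told apart. L1 was higher in 7 of 10 members and lower in 0, while 36.2% of all genes were called, 18.3% higher and 18.0% lower (edgeR). The members' median was 1.20 on the log2 scale, against 0.03 over all genes and 0.82 over 85 plastid rows, of which 42 were higher and 2 lower. Photosystem I had 5 of 7 listed genes higher, cytochrome b6f 5 of 6, photosystem II 12 of 15 and ATP synthase 5 of 6.

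The lowest adjusted p among the members was that of ndhC. It ranged from 364 to 1734 CPM over the 32 L1 libraries (median 1193), and the 6 CTAB libraries of L2 held 274 to 683 CPM (median 467). Of 32 L1 libraries, 29 lay above every L2 CTAB library, and the ranges overlapped. The log2 fold change was 1.27 ± 0.24 (SE, edgeR adjusted p = 0.000111).

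The other called members were ndhG (1.53), ndhI (1.47), ndhE (1.36), ndhA (1.30), ndhF (1.13) and ndhK (0.97), with edgeR adjusted p from 0.0028 to 0.0495. For these, 14 (ndhE) to 27 (ndhF) of the 32 L1 libraries lay above every L2 CTAB library. ndhD (0.82, adjusted p = 0.0692), ndhJ (0.90, adjusted p = 0.115) and ndhH (0.54, adjusted p = 0.192) were not called by edgeR. Without L1 zero palm 9, 8 members and 36.1% of all genes were called.

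The calls of ndhG and ndhE were not stable when 1 L2 CTAB library was left out. In these fits the log2 fold change was 1.43 to 1.63 for ndhG and 1.20 to 1.75 for ndhE. The call of ndhG was lost in 6 of 6 fits, with edgeR adjusted p from 0.0663 to 0.0943. That of ndhE was lost in 4 of 6, with edgeR adjusted p from 0.0554 to 0.0790. On the plastid-total scale, where the median of all genes moved from 0.03 to -0.86 and 58.4% of genes were called, 0 of 10 members were called by edgeR and log2 values ran from -0.43 for ndhH to 0.51 for ndhI. With high palms left out of L2 and the embryogenesis group added as a term, 3 members and 32.9% of all genes were called. The members' median was then 1.04, with 1.11 for ndhA and 1.36 for ndhG on the log2 scale, neither of them called.

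Across palms, some pairs of members went together more closely than others. Over the 32 L1 libraries, Pearson correlations of log2 CPM between pairs of members ran from 0.25 to 0.92 with a median of 0.69, over 45 pairs. Without zero palm 9 they ran from 0.21 to 0.92 with a median of 0.62. These points share library, depth and plastid content, and the coefficients are descriptions.

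High values joined ndhD, ndhF, ndhG and ndhJ: ndhD with ndhF had 0.92, ndhG with ndhJ 0.91, ndhD with ndhJ 0.90 and ndhD with ndhG 0.87, and 0.91, 0.92, 0.89 and 0.89 without zero palm 9. They also joined ndhE, ndhH, ndhI and ndhK: ndhE with ndhI and ndhH with ndhI had 0.90, ndhE with ndhH 0.86 and ndhH with ndhK 0.83. These were 0.84, 0.83, 0.78 and 0.82 without zero palm 9. ndhG had 0.25 with ndhH and 0.32 with ndhI, and 0.21 and 0.30 without that palm.

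The 2 sets of 4 genes were picked from these values and were not separate. Pairs within the first ran from 0.72 to 0.92, within the second from 0.75 to 0.90 and between them from 0.25 to 0.74. ndhF in particular had 0.74 with ndhE of the other set and 0.72 with ndhG of its own. The ranges were 0.70 to 0.92, 0.68 to 0.84 and 0.21 to 0.68 without zero palm 9.

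Neighbours in the genome had both low and high values. ndhG with its neighbours ndhE and ndhI had 0.35 and 0.32, and ndhK with its neighbours ndhJ and ndhC had 0.42 with each. psaC had 0.89 with ndhE next to it and 0.68 with ndhD on its other side. ndhA had 0.75 with ndhI and 0.73 with ndhH, its neighbours in the run. Without zero palm 9, ndhG with ndhE had 0.33, ndhK with ndhJ 0.34 and with ndhC 0.35, psaC with ndhE 0.87 and with ndhD 0.62, and ndhA with both neighbours 0.67.

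**Figure D5:**
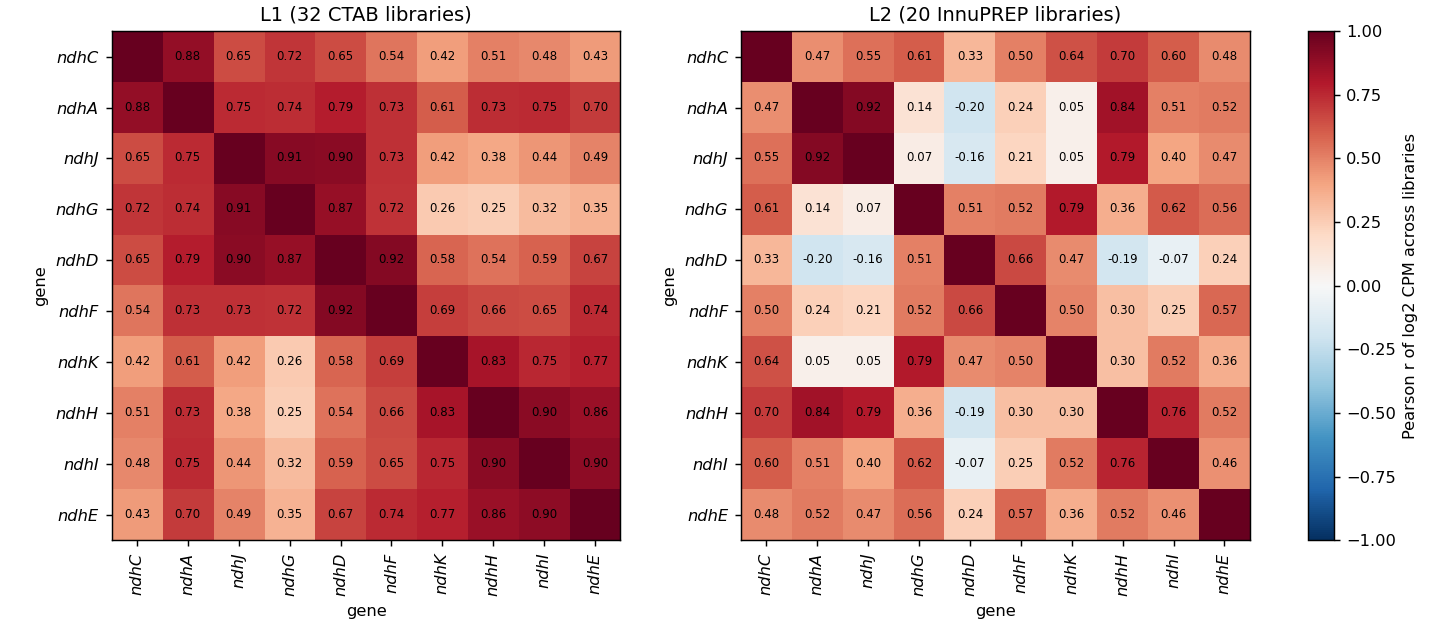
Pearson correlation of log2 CPM between members across 32 L1 libraries (left) and 20 L2 InnuPREP libraries (right), in the same gene order; red is positive and blue negative. Values range from 0.25 to 0.92 in L1 and from -0.20 to 0.92 in L2.

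Over the 20 L2 InnuPREP libraries the values were lower and arranged in another way, from -0.20 to 0.92 with a median of 0.48. ndhA, ndhJ and ndhH, the genes with the most negative log2 fold changes in high palms, went together, at 0.92 for ndhA with ndhJ and 0.84 for ndhA with ndhH. ndhD had -0.20 with ndhA and -0.16 with ndhJ, against 0.79 and 0.90 in L1, or 0.75 and 0.89 without zero palm 9. These values hold the difference between embryogenesis groups as well as that between palms of a group.

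The members followed the plastid share of each library to different extents. In L1 the correlation of log2 CPM with the log2 plastid share was 0.91 for ndhA and 0.63 for ndhK, the highest and the lowest, and in L2 InnuPREP libraries it ran from 0.23 for ndhD to 0.85 for ndhC. The correlation with the share of multi-mapped reads in L1 ran from 0.15 for ndhC to 0.81 for ndhK. In L1, members of the second set had 0.68 to 0.81 with that share and those of the first 0.28 for ndhG to 0.73 for ndhF. Without zero palm 9 the correlation with the plastid share ran from 0.54 for ndhK to 0.89 for ndhA. That with the multi-mapped share then ran from 0.046 for ndhC to 0.76 for ndhK, at 0.58 to 0.76 in the second set and 0.24 to 0.67 in the first. What part that share has in the 2 sets was not tested.

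The genes most like the members, by correlation with their mean log2 CPM over the 32 L1 libraries, were all plastid genes. Of the 119 genes with a symbol, cemA, encoding an envelope membrane protein, had 0.96. ccsA, needed to attach haem to c-type cytochromes and the neighbour of ndhD, had 0.93, and psbZ, a small photosystem II subunit, 0.92. These were also the first 3 of all 21981 genes compared. Over the 20 L2 InnuPREP libraries they had 0.64, 0.37 and 0.62. Without zero palm 9 in L1 they had 0.94, 0.91 and 0.92, at places 1, 6 and 2 of all genes.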

How the data were processed

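RNA from spear leaves was made into 3′ end libraries with the QuantSeq FWD kit, per the labels' protocols. Each of the 58 deposited files held whole-number read counts per gene that the authors had not normalised. STAR 2.7.2b, HTSeq 0.11.2 and bcl2fastq are named, per the submitters' processing notes. The genome build, the counting settings and the use of strand are not given in the sources used here. The kit primes on runs of A, so a plastid row holds the reads that were primed, and levels of different genes are not compared. The 5 rows of unassigned reads stayed out of library sizes and tests. The EG11 RefSeq gene table served for names and neighbours only, and held every plastid row (79 protein, 29 tRNA and 4 rRNA genes). The ndhB row held 0 counts in all libraries, where a count of 3 is the limit that 0 allows in each.

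Counts were fitted with edgeR 4.0.16 in R 4.3.3 (TMM scaling, filterByExpr, robust glmQLFit, glmQLFTest), on all genes, with Benjamini-Hochberg adjustment across every gene that entered the fit. Genes with an adjusted p below 0.05 count as called. The SE of a log2 fold change is its size divided by the square root of F. A prior count of 2 entered log2 CPM. The fits were tested on simulated data. L2 groups were compared within InnuPREP libraries, L1 groups among L1 libraries, extractions with the palm as a block and agencies among CTAB libraries. Replicates are separate palms, per the labels. The palm label pairs the CTAB and InnuPREP libraries, and deviations from the mean of each method had correlations of 0.66 to 0.78 between libraries of 1 palm and of 0.23 or less otherwise. The plastid-total scaling divides by each library's plastid counts and so tests a gene against the other plastid genes.

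The members are named in full, with psaC, up to 3 called genes per pathway list by the size of their change, and the 3 genes most like the members. Members, lists and tests were chosen with earlier results of these data known. Leaving out L1 zero palm 9 was chosen after seeing the data. Alternatives were RLE scaling, plastid-total scaling, DESeq2 1.42.0, no filter on low counts, thinned counts, genotype or library quality terms, and no block. Others were zero and low palms only with the embryogenesis group as a term, and single libraries left out. The sequences of the genes were not used here.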

Additional observations from a re-analysis of the deposited data

Results flagged for a closer look

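Of 43 groups of values tested for a library far from the others, 1 was flagged, and chance flags about 1 in 20 such groups. The level of ndhE in L2 zero palm 6 by InnuPREP was 1.33 CPM, from 15 counts, while the other 5 zero palms lay between 0.0903 and 0.485 CPM. The reported comparisons among L2 InnuPREP groups did not test ndhE, and the interaction between agencies, which uses this library, did not call it. The library also enters CTAB against InnuPREP, where the log2 fold change of ndhE was 1.99, and 2.23 without that palm, called both ways by edgeR.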

How the results depend on the processing

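The number of members called in L2 high against zero and low palms (2 of 9) was 1 with thinned counts and 0 with genotype as a term, and 1 to 3 with 1 library left out. In high against zero palms (0) it was 2 with plastid-total scaling and 1 with DESeq2. For CTAB against InnuPREP (8 of 10) it was 5 with plastid-total scaling, 3 without the palm as a block and 7 to 9 with 1 palm left out. Plastid-total scaling reversed ndhC (-0.34), ndhD (-0.12) and ndhG (-0.041) there. For L1 against L2 (7 of 10) it was 0 with plastid-total scaling, and 3 with zero and low palms only and their group as a term. It was 5 to 6 with 1 L2 library left out and 8 without L1 zero palm 9. The fall of ndhA in L2 high palms stayed called in 20 of 20 fits with 1 library left out, from -0.69 to -0.51 on the log2 scale. With genotype as a term it was -0.75 ± 0.37 (SE) and lost its call. Over protein-coding plastid rows only, the NDH share was 2.61% in L2 zero, 2.45% in low and 2.44% in high palms, and 2.84%, 2.49% and 2.14% in the CTAB libraries of those groups. Other alternatives of these counts and shares stayed within 1.5 times the reported count or 1 SD of the share. The cause of these shifts was not tested. Low counts limit ndhE in L2, and 2 CTAB libraries per embryogenesis group limit every comparison within them.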
